A study of Mus musculus with 24 samples.

Results

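The regions described here are intragenic peaks of accessible chromatin, meaning peaks that overlap the body of an annotated mouse gene (GRCm38) and lie more than 1 kb from every annotated gene end. Of 75802 peaks, 36333 (47.9%) met this rule, 19611 lay within 1 kb of a gene end, and the other 19858 were intergenic. CD8 T cells of C57BL/6J mice were taken from spleens and lymph nodes with magnetic beads, activated with anti-CD28 and IL-2, and cultured for 3 days. From day 2 to day 3 the medium held 20 mM lactate together with Oxyrase, 20 mM lactate, 20 mM sodium pyruvate or 20 mM sodium chloride (NaCl), with 3 ATAC-seq and 3 RNA-seq libraries in each of the 4 groups. Oxyrase is a bacterial membrane preparation whose enzymes remove oxygen from a medium, and it was given only on top of lactate, so it was read against lactate. Lactate and pyruvate were given as sodium salts, and NaCl is the salt without either metabolite. All groups are cultures of purified cells, and nothing in the labels tells separate mice or cultures from repeat libraries. The p-values therefore measure only the spread between these libraries, which may be technical.

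ATAC-seq marks open chromatin with a transposase that inserts adapters where DNA is free of nucleosomes. Open sites inside genes and away from their ends are often enhancers, short stretches where transcription factors bind and from which a promoter, sometimes a distant one, is regulated. Others are promoters of shorter transcripts of the same gene, or of another gene that starts inside it. In CD8 T cells such enhancers are known to sit in long introns of lineage and effector genes. Promoters of broadly used genes are usually rich in CpG dinucleotides, whereas enhancers that open on activation often hold sites for AP-1, the family of FOS, JUN and BATF factors.

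Most of the intragenic peaks had no annotated start under them, but 1121 (3.09%) covered the start of a RefSeq transcript that begins inside a gene. For these starts the sequence could be read, as a window of 300 bases that runs from 250 before to 50 after the start in RefSeq's GRCm38.p6 annotation, written along the strand of the transcript. The first 3 windows below lie under peaks that were lower with lactate than with NaCl, and the other 2 under peaks that were higher when Oxyrase was added to lactate. These starts were chosen after the values were seen. Capitals mark each CpG.
Runx3 internal start, chr4:135152295-135152594, plus strand: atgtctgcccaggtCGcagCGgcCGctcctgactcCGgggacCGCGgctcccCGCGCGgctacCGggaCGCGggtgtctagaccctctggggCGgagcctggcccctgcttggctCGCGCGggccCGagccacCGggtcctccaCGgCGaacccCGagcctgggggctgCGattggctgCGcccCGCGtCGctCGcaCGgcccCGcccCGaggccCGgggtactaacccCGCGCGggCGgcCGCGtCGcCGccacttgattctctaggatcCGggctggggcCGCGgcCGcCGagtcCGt
Dazap1 internal start, chr10:80264764-80265063, plus strand: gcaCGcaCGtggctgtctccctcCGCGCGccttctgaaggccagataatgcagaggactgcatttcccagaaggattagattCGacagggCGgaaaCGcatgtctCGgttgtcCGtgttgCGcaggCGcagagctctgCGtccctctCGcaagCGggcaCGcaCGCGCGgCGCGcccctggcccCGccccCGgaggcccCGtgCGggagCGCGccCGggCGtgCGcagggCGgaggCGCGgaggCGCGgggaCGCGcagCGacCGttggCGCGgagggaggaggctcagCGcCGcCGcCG
Hnrnpl internal start, chr7:28810640-28810939, plus strand: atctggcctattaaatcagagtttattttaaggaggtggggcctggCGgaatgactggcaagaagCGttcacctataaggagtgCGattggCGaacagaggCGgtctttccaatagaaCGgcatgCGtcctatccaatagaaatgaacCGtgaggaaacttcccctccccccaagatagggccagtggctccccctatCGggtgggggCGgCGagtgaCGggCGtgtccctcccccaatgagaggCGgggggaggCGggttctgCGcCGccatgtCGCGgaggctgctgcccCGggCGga
Clcn3 internal start, chr8:60954750-60955049, minus strand: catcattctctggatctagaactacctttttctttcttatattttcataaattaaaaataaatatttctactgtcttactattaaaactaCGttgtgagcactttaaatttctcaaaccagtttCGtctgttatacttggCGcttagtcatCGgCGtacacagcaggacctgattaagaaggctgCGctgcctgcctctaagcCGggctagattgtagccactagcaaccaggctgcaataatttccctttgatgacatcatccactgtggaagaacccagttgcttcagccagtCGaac
Cast internal start, chr13:74734212-74734511, minus strand: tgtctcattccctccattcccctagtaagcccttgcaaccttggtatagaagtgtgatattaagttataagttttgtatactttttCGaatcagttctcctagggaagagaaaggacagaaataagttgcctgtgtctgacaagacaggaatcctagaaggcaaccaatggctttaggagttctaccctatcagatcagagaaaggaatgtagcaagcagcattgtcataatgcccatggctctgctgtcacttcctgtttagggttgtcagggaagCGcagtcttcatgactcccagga
The first 3 windows held 45, 45 and 21 CpG dinucleotides, for Runx3, Dazap1 and Hnrnpl in that order. The Clcn3 window held 8 and the Cast window 2. The median over all 1121 internal starts was 18.0, against 7 over the 32851 promoter windows of the annotation.

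In build and abundance the intragenic peaks resembled the intergenic ones more than those at gene ends. Their median width was 378 bp, against 784 bp at gene ends and 379 bp between genes. Their median accessibility was 4.43 CPM (counts scaled to the same library size), which is 11.8 CPM per kb of peak, against 22.2 CPM per kb at gene ends and 11 CPM per kb between genes. Peaks over an internal start were the exception, with a median width of 891 bp and 26.7 CPM per kb. The median distance to the nearest gene end was 10.5 kb, with quartiles of 4.38 and 24.4 kb. By distance, 28.2% lay 1 to 5 kb from a gene end, 41.2% 5 to 20 kb, 21.3% 20 to 50 kb and 9.21% farther. Nearest inside the limit of 1 kb stood peaks in Ralyl, Gm973, Heg1 and Gm33299 at 1001 bp, and just outside it stood peaks in Acbd4, Ms4a6c, Nfic and Tmem245 at 1000 bp.

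The peaks fell in 12037 genes, which are called host genes here, and 1788 peaks lay in more than 1 gene. Protein-coding hosts held 88.7% of the peaks and long non-coding RNA genes 10.4%. Spread over hosts was uneven: 5202 hosts had a single peak and 699 had at least 10. Foxp1, a forkhead factor of T cell quiescence, held the most with 83, ahead of the phosphatase gene Inpp4b with 60, and Bach2, a repressor that restrains effector differentiation, with 53. The LIM domain gene Lpp held 53, the immunoglobulin heavy chain locus Igh 52, the adaptor gene Sh3kbp1 45, and the anchoring protein gene Akap13 and the phosphodiesterase gene Pde4d 44 each. Peaks of 1 host share a chromosomal neighbourhood, so they are not independent of each other.

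Between 25.31 and 37.07 M reads were counted in peaks per ATAC library, with a median of 108 to 179 counts per intragenic peak in a library. At these depths 3 counts, the limit that a count of 0 allows for counting error, corresponded to 0.0809 to 0.119 CPM. On every share given below the library NaCl 3 lay nearer to the lactate libraries than to NaCl 1 and NaCl 2, and counts of peaks and ratios against NaCl are also given without it. In RNA, the markers of the labelled cell type were present in every library, with Cd8a at 391 to 725 CPM. Defining markers of other cells were at or near 0, with Blk at 0 to 0.139 CPM, Ncr1 at 0 to 0.0621 CPM, Cd4 at 0.303 to 0.621 CPM and Csf1r at 0 to 0.161 CPM.

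The share of counts that fell in intragenic peaks was highest in cells given lactate with Oxyrase. It was 35.23%, 33.96% and 34.30% in the lactate with Oxyrase libraries, against 32.25%, 33.15% and 33.09% in lactate, 30.73%, 30.13% and 31.60% in pyruvate and 30.25%, 29.85% and 32.46% in NaCl libraries. The lactate with Oxyrase libraries did not overlap any other group, and lactate did not overlap pyruvate, while NaCl 3 reached into the range of lactate. Group means were 34.50% ± 0.66, 32.83% ± 0.50, 30.82% ± 0.74 and 30.85% ± 1.4 in that order (SD, n = 3 each). The share taken by gene-end peaks ran the opposite way, at 48.15% ± 0.76 with lactate and Oxyrase, 50.65% ± 0.84 with lactate, 53.61% ± 1.1 with pyruvate and 53.53% ± 2.0 with NaCl (SD, n = 3 each).

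Because both shares come from 1 library, their ratio needs no scaling between libraries. The log2 ratio of intragenic to gene-end counts averaged −0.48 with lactate and Oxyrase, −0.63 with lactate, −0.80 with pyruvate and −0.80 with NaCl, and differed over the 4 groups (F = 12.3, exact permutation p = 0.00325, 369600 assignments). With 1 library left out at a time the F ranged from 8.37, without lactate with Oxyrase 1 (exact permutation p = 0.0168), to 30.7, without NaCl 3 (p = 3.25e-04). Pairwise, 3 libraries against 3 cannot give a two-sided exact p below 0.1. Lactate with Oxyrase exceeded lactate by 0.14 (exact permutation p = 0.1) and NaCl by 0.31 (p = 0.1). Lactate exceeded NaCl by 0.17 (exact permutation p = 0.200), and pyruvate stood 0.17 below lactate (p = 0.1). Pyruvate and NaCl had the same mean ratio to 2 decimals (exact permutation p = 0.900). The ratio of intragenic to intergenic counts, by contrast, spanned only 0.98 to 0.99 in its group means (F = 0.289, exact permutation p = 0.829).

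**Figure D1:**
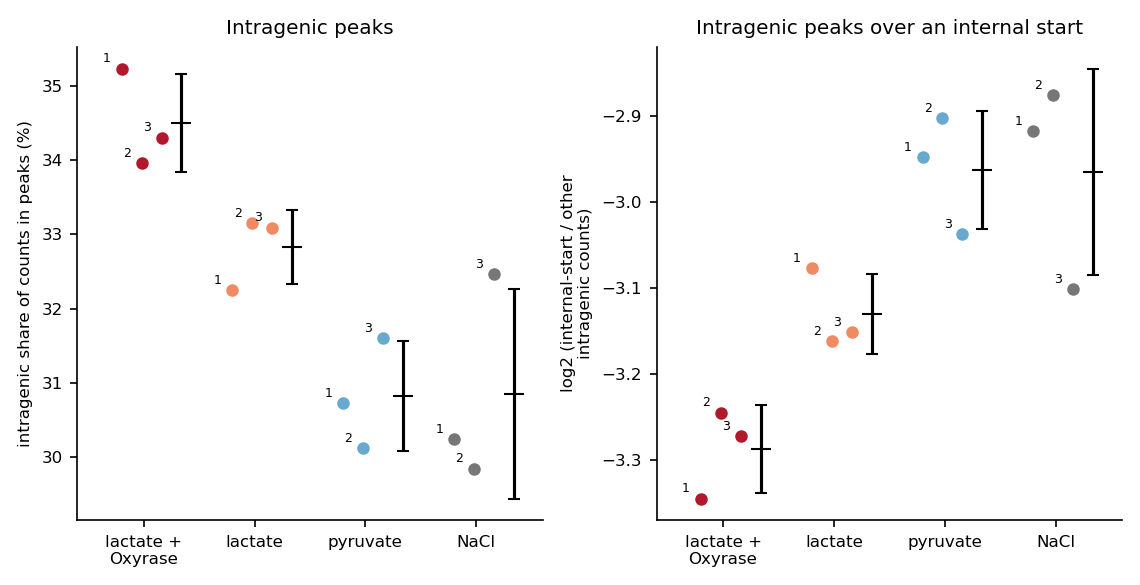
Left, the percentage of a library's counts in peaks that fell in intragenic peaks; right, the log2 ratio of counts over internal starts to counts in the other intragenic peaks. Points are libraries with their replicate number and black bars are mean ± SD of 3 libraries; the vertical axes do not start at 0. Lactate with Oxyrase is highest on the left (33.96 to 35.23%) and lowest on the right (−3.345 to −3.245).

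Adding Oxyrase to lactate raised more intragenic peaks than it lowered. At an adjusted p under 0.05 (edgeR quasi-likelihood test, Benjamini-Hochberg over all peaks), 6826 intragenic peaks rose (18.8%) and 3785 fell (10.4%), where 28.4% of all 75802 peaks were called, 15.6% higher and 12.8% lower. Gene-end peaks went the other way, with 1326 higher and 3869 lower, whereas intergenic peaks had 3691 higher and 2042 lower. Called changes of 2-fold or more were mostly gains in every class. There were 897 intragenic peaks higher and 196 lower, where all 75802 peaks gave 1571 and 353. Gene-end peaks had 140 higher and 35 lower, and intergenic peaks 534 and 122. The split of all called intragenic peaks depends on the scaling. With scaling factors taken from intragenic peaks alone, 5841 were higher and 4937 lower. Their median log2 fold change moved to −0.02, against 0.03.

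Gains were more frequent the farther a peak lay from a gene end. Of the peaks 1 to 5 kb from an end, 15.2% rose and 12.5% fell, and of those over 50 kb away, 21.6% rose and 9.08% fell. The bands between gave 19.3% higher and 9.71% lower at 5 to 20 kb, and 21.2% higher and 9.63% lower at 20 to 50 kb. Scaled on intragenic peaks alone, the nearest band had 1311 higher and 1673 lower peaks, and the farthest 626 higher and 386 lower. The order of the bands was therefore the same under both scalings, but in the nearest band the majority was not.

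**Figure D2:**
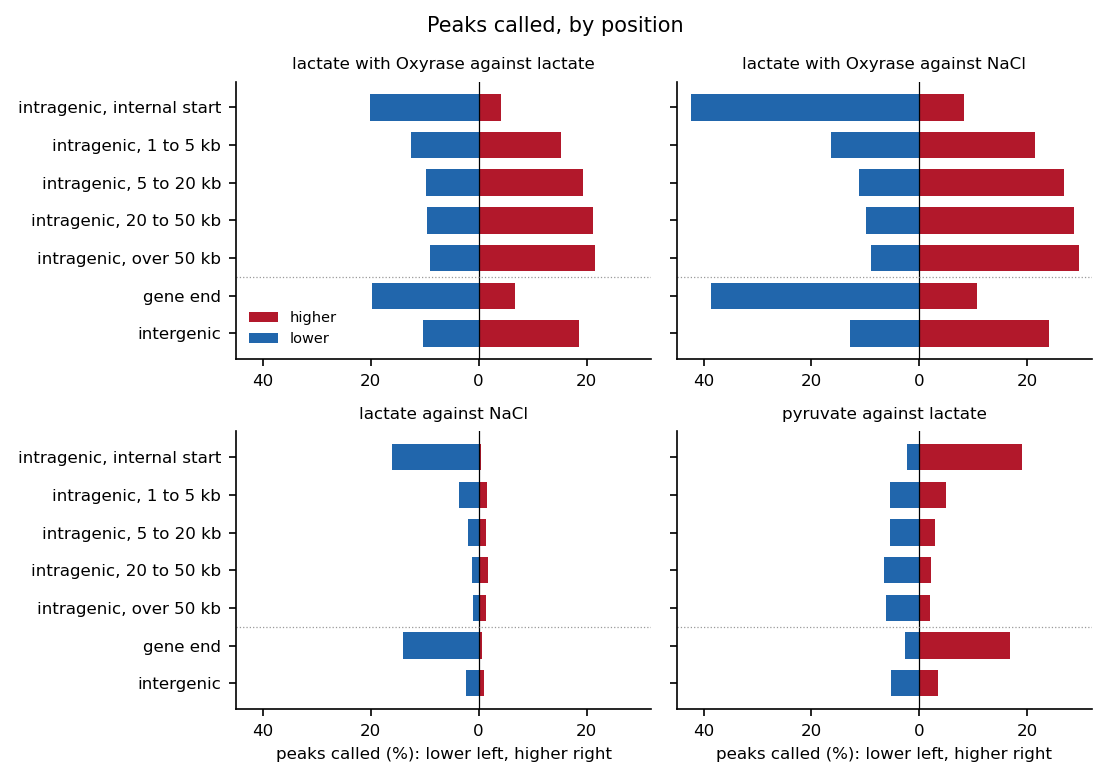
Percentage of peaks called higher (red, right of 0) or lower (blue, left of 0) by edgeR's quasi-likelihood test in 4 comparisons, for intragenic peaks over an internal start or by distance to the nearest gene end, and for gene-end and intergenic peaks. Internal-start peaks are also counted in their distance band. For lactate with Oxyrase against lactate the higher share was 15.2% at 1 to 5 kb and 21.6% over 50 kb, and of 1121 internal-start peaks 46 were higher and 226 lower.

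The peaks that rose most with Oxyrase included several far inside long genes. A peak in Aff1 (chr5:103774733-103775087, 80.2 kb from a gene end), a scaffold gene of the super elongation complex, had 9.64, 12.1 and 8.85 CPM with lactate and Oxyrase, against 3.17, 2.95 and 2.90 CPM with lactate. Peaks of largest fold change were named only where the groups compared did not overlap, so non-overlap adds nothing for them. The log2 fold change in Aff1 was 1.76 ± 0.15 (SE, adjusted p = 9.43e-12, edgeR). A peak in Schip1 (chr3:68608759-68609454), a gene of a cytoskeletal adaptor that overlaps Iqschfp here, had 30.2, 32.6 and 26.5 CPM with lactate and Oxyrase, 9.28, 8.35 and 10.2 with lactate, 9.75, 9.67 and 9.27 with pyruvate, and 8.22, 8.24 and 9.39 with NaCl. Its rise of 1.68 ± 0.10 over lactate (SE, edgeR adjusted p = 6.58e-16) set the lactate with Oxyrase libraries apart from all 9 others. Schip1 transcripts were nearly absent, at 0 to 0.410 CPM in the lactate with Oxyrase RNA libraries and 0 in those given lactate. A peak in Zdhhc20, a palmitoyltransferase gene, had 9.97, 9.66 and 10.7 CPM with lactate and Oxyrase against 2.64, 2.83 and 3.55 CPM with lactate. A peak in Mitf, a basic helix-loop-helix factor gene, had 17.2, 18.0 and 13.3 CPM against 5.13, 4.60 and 5.62 CPM in the same order of groups. The peaks rose by 1.74 and 1.66 on the log2 scale, in that order.

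Losses of 2-fold or more were fewer. A peak in Rbm45 (chr2:76374684-76374922), an RNA-binding protein gene, had 1.98, 1.87 and 1.5 CPM with lactate and Oxyrase, against 6.55, 6.28 and 5.2 CPM with lactate. It fell by 1.74 ± 0.17 on the log2 scale (SE, edgeR adjusted p = 1.04e-10), while the Rbm45 transcript was higher, at 60.3 ± 1.99 CPM with lactate and Oxyrase against 49.9 ± 1.84 CPM with lactate (SD, n = 3 each). A peak in Map10 (chr8:125671291-125671709), a gene of a microtubule-associated protein, had 2.80, 3.9 and 2.73 CPM with lactate and Oxyrase, against 8.89, 9.50 and 8.94 CPM with lactate, a log2 fold change of −1.54 ± 0.14 (SE, edgeR adjusted p = 1.72e-11). In Itgb3, which encodes integrin beta 3, 5 of 12 peaks fell and 0 rose. The one of smallest p (chr11:104661187-104662036) had 4.92, 6.73 and 6.26 CPM with lactate and Oxyrase, against 12.3, 12.4 and 14.4 CPM with lactate, and fell by 1.13 on the log2 scale. Itgb3 transcripts were also lower, at 10.1 ± 0.533 CPM against 17.4 ± 2.23 CPM (SD, n = 3 each; log2 fold change −0.78, edgeR adjusted p = 5.41e-07).

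**Figure D3:**
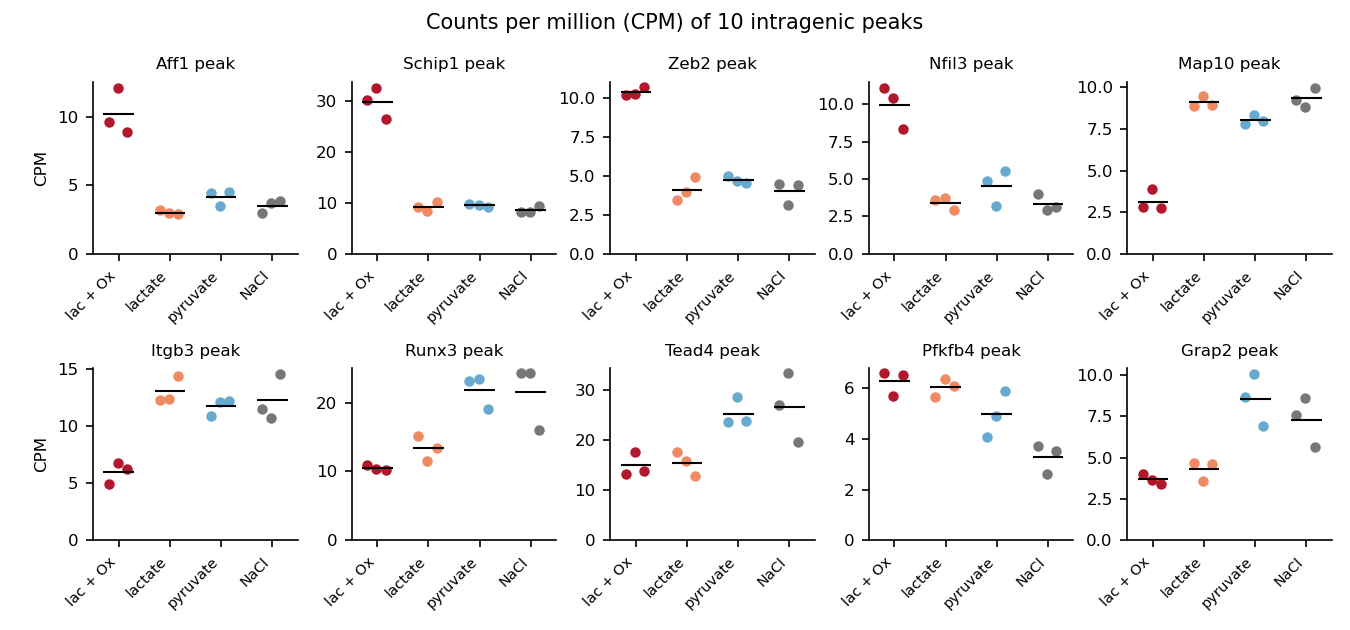
Accessibility in CPM of 10 intragenic peaks in each of the 12 ATAC libraries (points) with group means (lines); lac + Ox is lactate with Oxyrase. The Aff1, Schip1, Zeb2 and Nfil3 peaks are higher and the Map10 and Itgb3 peaks lower with Oxyrase than in the other groups, and the Runx3, Tead4 and Grap2 peaks are lower in both lactate groups than with pyruvate.

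Single genes of the panel differed in how their peaks moved. In Zeb2, a zinc-finger factor of terminal effector cells, 6 of 11 peaks rose with Oxyrase and 0 fell. The peak of smallest p (chr2:45049293-45049631) had 10.2, 10.3 and 10.7 CPM with lactate and Oxyrase, 3.44, 3.95 and 4.91 with lactate, 5.02, 4.70 and 4.54 with pyruvate, and 4.52, 3.14 and 4.45 with NaCl. Oxyrase stood apart from every other group there, with a log2 fold change of 1.34 ± 0.15 over lactate (SE, edgeR adjusted p = 1.40e-09). A peak in Nfil3, a leucine zipper factor gene, had 11.1, 10.4 and 8.35 CPM with lactate and Oxyrase against 3.6, 3.72 and 2.94 CPM with lactate (log2 fold change 1.55 ± 0.16, SE, edgeR adjusted p = 8.50e-10). Havcr2 encodes TIM-3, an inhibitory receptor, and all 3 of its peaks rose by small amounts. The one of smallest p had 38.8, 40.6 and 38.7 CPM with lactate and Oxyrase against 32.5, 30.0 and 31.9 CPM with lactate (log2 fold change 0.32 ± 0.09, SE, edgeR adjusted p = 0.00364). In Entpd1, the gene of the ectonucleotidase CD39, 3 of 12 peaks rose and 5 fell. In Bach2 12 of 53 rose and 4 fell, or 10 and 8 when scaled on intragenic peaks alone.

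Genes of the HIF pathway and hypoxia response stood near the background of 18.8% higher and 10.4% lower, with 31 of 129 intragenic peaks higher and 12 lower (median log2 fold change 0.06, against 0.03 over all intragenic peaks). With the scaling on intragenic peaks they had 29 higher and 16 lower, with a median of 0.00. All 3 peaks in Egln3, a prolyl hydroxylase that marks HIF subunits for destruction, were higher. The one of smallest p (chr12:54198363-54198716) had 12.2, 14.3 and 12.7 CPM with lactate and Oxyrase against 7.81, 7.51 and 7.33 CPM with lactate (log2 fold change 0.79 ± 0.12, SE, edgeR adjusted p = 2.39e-06). A peak in Gbe1, the glycogen branching enzyme gene, had 5.65, 8.17 and 6.56 CPM with lactate and Oxyrase against 2.83, 2.11 and 2.81 CPM with lactate, and rose by 1.38 ± 0.18 (SE, edgeR adjusted p = 1.20e-07). For genes of the NRF2 and antioxidant list, 18 of 46 peaks rose and 3 fell (median 0.26), and 18 and 6 when scaled on intragenic peaks alone. A peak in Slc7a11, the cystine and glutamate exchanger gene, had 2.96, 4.74 and 2.73 CPM with lactate and Oxyrase against 0.646, 0.766 and 0.936 CPM with lactate (log2 fold change 2.15 ± 0.30, SE, edgeR adjusted p = 3.16e-07). In Txnrd1, the thioredoxin reductase gene, a peak that also lies in Gm38560 had 13.7, 13.9 and 12.1 CPM with lactate and Oxyrase against 6.27, 5.25 and 6.29 CPM with lactate, and rose by 1.15 on the log2 scale.

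The list of chromatin enzyme genes was balanced, with 43 of 263 peaks higher and 43 lower, or 39 and 48 when scaled on intragenic peaks alone. In Kdm4a, a histone H3 lysine demethylase gene, the peak at chr4:118138993-118139136 had 6.03, 5.70 and 5.86 CPM with lactate and Oxyrase against 2.18, 1.46 and 1.45 CPM with lactate (log2 fold change 1.78 ± 0.20, SE, edgeR adjusted p = 4.11e-09). A peak in the related Kdm4c rose by 1.00 ± 0.17 (SE, edgeR adjusted p = 1.78e-05). A peak in Tet2, whose product oxidises methylated cytosine, had 30.7, 35.5 and 27.9 CPM with lactate and Oxyrase against 17.8, 17.5 and 19.6 CPM with lactate, and rose by 0.78 ± 0.09 (SE, edgeR adjusted p = 1.70e-08). In all, 3 of 8 peaks in Tet2 rose and 1 fell. The counts of the lists stand beside 18.8% higher and 10.4% lower over all intragenic peaks, and 15.6% and 12.8% over all peaks. T cell transcription factors had 125 of 600 peaks higher and 73 lower, or 98 and 107 when scaled on intragenic peaks alone. T cell receptor signalling genes had 52 of 323 higher and 44 lower, inhibitory receptors 17 of 64 higher and 9 lower, and homing and adhesion genes 27 of 145 higher and 25 lower. Genes of pyruvate, lactate and glycolysis had 14 of 74 higher and 9 lower, and costimulation and death receptor genes 23 of 108 higher and 15 lower. Under intragenic scaling the majority turned for T cell receptor signalling (45 higher and 58 lower), homing and adhesion (24 and 34) and glycolysis (11 and 13). The same scaling gave 18 and 18 for costimulation, and 15 and 10 for inhibitory receptors. Cytokine receptor genes had 19 of 129 higher and 22 lower, interferon response genes 7 of 57 in each direction, cytokine and chemokine genes 3 of 23 higher and 5 lower, and cytotoxic granule genes 2 of 23 higher and 4 lower. Peaks in marker genes of CD8 T cells were 3 of 34 higher and 5 lower. Those of other cells were 1 of 22 higher and 5 lower for B cells, 1 of 17 and 2 for myeloid and dendritic cells, 1 of 7 and 1 for CD4 T cells, and 1 of 12 and 3 for NK cells. In RNA the summed markers of NK cells were 21.7 to 24.9 CPM with lactate and Oxyrase and 6.94 to 7.71 CPM with lactate, mainly Klri2, and those of CD4 T cells 53.2 to 61.7 and 23.6 to 25.4 CPM, mainly Zbtb7b. Summed myeloid markers were 5.77 to 7.41 CPM with lactate and Oxyrase and 2.04 to 2.12 CPM with lactate, mainly Cd68. Those of CD8 T cells were lower, at 1579 to 1658 CPM with lactate and Oxyrase and 2063 to 2129 CPM with lactate. The part of these levels in the peak results was not tested.

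With 18.8% of all intragenic peaks higher and 10.4% lower, a host with many peaks can hold both directions from these shares alone. Whether more hosts did so than the shares give was not tested. Of the 699 hosts with at least 10 intragenic peaks, 398 held peaks of both directions, 224 held rises only, 65 held falls only and 12 held no called peak. Foxp1 had 15 of 83 peaks higher and 13 lower, or 11 and 20 when scaled on intragenic peaks alone. Gains prevailed in Lpp, with 15 of 53 higher and 3 lower, in the calcium channel gene Itpr1, with 13 of 35 higher and 1 lower, in Akap13, with 12 of 44 higher and 1 lower, and in the flippase gene Atp10a, with 11 of 31 higher and 0 lower. Losses prevailed in Igh, with 24 of 52 lower and 3 higher, in Ano10, with 12 of 17 lower and 0 higher, and in the sialyltransferase gene St8sia1, with 11 of 31 lower and 2 higher. Beside the falls in Igh, the summed level of 10 B cell markers in RNA was 67.4 to 78.9 CPM with lactate and Oxyrase, 191 to 200 with lactate, 148 to 156 with pyruvate and 207 to 215 with NaCl. Nearly all of that sum was Ighm, the constant region gene at the same locus, with 62.0 to 210 CPM over all libraries, while Blk stood at 0 to 0.139 CPM and Cd22 at 0 to 0.366 CPM. Their part in the falls was not tested. In bulk samples fewer cells of a type and less signal per cell cannot be told apart.

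Set against NaCl, lactate with Oxyrase gave the largest number of called intragenic peaks. There were 9427 higher (25.9%) and 4435 lower (12.2%), where 40.7% of all peaks were called, 21.5% higher and 19.2% lower. Scaling on intragenic peaks alone gave 6959 higher and 6556 lower and moved the median log2 fold change to 0.00, against 0.11. The peak in Schip1 rose by 1.79 on the log2 scale, and that in Map10 fell by 1.58 ± 0.14 (SE, edgeR adjusted p = 4.94e-12). The NRF2 and antioxidant list had 22 of 46 peaks higher and 4 lower, and the HIF list 31 of 129 higher and 13 lower. Intragenic scaling gave 17 and 4 for NRF2, and 26 and 23 for HIF (median −0.01). Without NaCl 3 all intragenic peaks gave 9607 higher and 4232 lower, the NRF2 list 18 and 4 and the HIF list 34 and 14. This comparison shares its lactate with Oxyrase libraries with the one above, so the 2 are not independent.

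Lactate without Oxyrase changed few intragenic peaks against NaCl. Of the 36333, 529 rose (1.46%) and 792 fell (2.18%), where 6.41% of all peaks were called, 1.13% higher and 5.28% lower. Gene-end peaks made up most of the falls, with 2748 lower and 117 higher. The count rested on single libraries: there were 1321 called peaks in all, but 275 when NaCl 1 was left out and 132 when NaCl 2 was. Dropping lactate 2 gave 551 and dropping lactate 3 gave 262. Without NaCl 3 it was 3864, with 2229 higher and 1635 lower. Scaled on intragenic peaks alone, 253 were higher and 1150 lower. With DESeq2, 491 were higher and 929 lower.

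Named peaks of this comparison included falls and rises. A peak in Tead4 (chr6:128285860-128286378), a factor gene of the Hippo pathway, had 13.3, 17.6 and 13.9 CPM with lactate and Oxyrase, 17.5, 15.8 and 12.9 with lactate, 23.5, 28.5 and 23.7 with pyruvate, and 26.9, 33.3 and 19.6 with NaCl. Both lactate groups lay below both others there, and lactate fell by 0.78 ± 0.12 against NaCl on the log2 scale (SE, edgeR adjusted p = 2.40e-04). Tead4 transcripts were at 0 to 0.122 CPM in all 12 RNA libraries. Among the gains, a peak in Pfkfb4 (chr9:109009616-109010302), which encodes an enzyme that sets the level of the glycolytic activator fructose 2,6-bisphosphate, had 5.66, 6.36 and 6.10 CPM with lactate against 3.71, 2.62 and 3.52 CPM with NaCl. It had 6.60, 5.70 and 6.52 CPM with lactate and Oxyrase, and 4.09, 4.92 and 5.89 CPM with pyruvate. The rise with lactate was 0.88 ± 0.16 (SE, edgeR adjusted p = 6.03e-04), while the Pfkfb4 transcript, at 3.77 ± 0.993 CPM with lactate and 3.78 ± 0.621 CPM with NaCl, did not pass the test (SD, n = 3 each; edgeR adjusted p = 0.982). Over all intragenic peaks 1.46% were higher and 2.18% lower, and over all peaks 1.13% and 5.28%. By list, T cell transcription factors had 13 of 600 peaks higher and 11 lower, and T cell receptor signalling genes 6 of 323 and 4. Chromatin enzymes had 2 of 263 higher and 14 lower, and HIF pathway genes 0 of 129 and 4. Under intragenic scaling the majority turned for the transcription factors (6 higher and 24 lower) and T cell receptor signalling (0 and 4). Without NaCl 3 these lists gave 54 and 32, and 39 and 6, chromatin enzymes 18 and 22, and HIF genes 6 and 10. Hosts with the most falls were the cytoskeletal linker gene Plec, with 4 of 12 peaks lower, Septin9 with 4 of 25, Fnbp1 with 4 of 16 and Jade2 with 4 of 6, each with 0 higher.

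No intragenic peak passed the test between pyruvate and NaCl. In the edgeR quasi-likelihood test 0 of 36333 peaks passed in either direction (smallest adjusted p = 0.384), as did 0% of all peaks, while 2198 intragenic peaks had an unadjusted p under 0.05. DESeq2 also called 0. The 95% interval of the log2 fold change had a median half-width of 0.34, or 1.26-fold. For 24861 peaks (68.4%) it lay within 1.5-fold in either direction and for 34828 (95.9%) within 2-fold, so larger differences remain possible at the others. Among internal starts the interval lay within 1.5-fold for 1075 of 1121 (95.9%).

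Pyruvate against lactate gave more falls than rises within genes. With pyruvate 1187 intragenic peaks were higher (3.27%) and 2081 lower (5.73%), where 11.6% of all peaks were called, 6.84% higher and 4.78% lower. At gene ends 3304 were higher and 511 lower. Scaled on intragenic peaks alone the split within genes turned to 1617 higher and 1089 lower, and with DESeq2 size factors it was 1328 higher and 1675 lower. The bands differed again: 514 rose and 559 fell at 1 to 5 kb, against 65 and 205 over 50 kb. Leaving out lactate 3 gave 1245 called peaks, leaving out pyruvate 2 gave 1564, leaving out lactate 2 gave 1701 and leaving out pyruvate 1 gave 1878.

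Named peaks in genes of T cell receptor signalling differed in direction. In Grap2, which encodes the adaptor GADS, the peak at chr15:80634800-80635132 had 8.71, 10.1 and 6.94 CPM with pyruvate against 4.67, 3.6 and 4.65 CPM with lactate. It had 3.99, 3.68 and 3.39 CPM with lactate and Oxyrase and 7.57, 8.61 and 5.63 CPM with NaCl, so the lactate groups and the others did not overlap. The difference was 0.99 ± 0.16 on the log2 scale (SE, edgeR adjusted p = 8.01e-05). A peak in Cd247, the gene of the receptor's zeta chain, went the other way, with 2.66, 3.23 and 2.33 CPM with pyruvate against 4.12, 5.32 and 4.84 CPM with lactate (log2 fold change −0.79 ± 0.17, SE, edgeR adjusted p = 0.00150). Of all 323 peaks in genes of that list, 3 rose and 30 fell, or 3 and 16 when scaled on intragenic peaks alone. Over all intragenic peaks 3.27% rose and 5.73% fell. Septin9 had 9 of 25 peaks higher, Plec 7 of 12, Fnbp1 6 of 16 and the scaffold gene Ksr1 5 of 10, with 0 lower in each. Ppm1h and Wwox had 9 of 32 lower each, and Sh3kbp1 8 of 45, with 0 higher in each. Scaled on intragenic peaks alone, 5 fell in Ppm1h, 6 in Wwox and 3 in Sh3kbp1.

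Peaks over an internal start followed the gene ends rather than the other intragenic peaks. With lactate and Oxyrase against lactate, 46 of 1121 rose and 226 fell, and against NaCl 93 rose and 475 fell. Lactate against NaCl gave 4 higher and 180 lower, pyruvate against lactate 213 higher and 25 lower, and pyruvate against NaCl 0 in either direction. Scaled on intragenic peaks alone these counts were 35 and 279, 44 and 585, 2 and 228, and 255 and 10 in the same order, so the majority kept its direction. Without NaCl 3, lactate with Oxyrase gave 102 higher and 517 lower against NaCl, and lactate 35 higher and 337 lower. Wide or strong intragenic peaks, internal starts among them, also leaned lower with Oxyrase over lactate. Those over 1000 bp had 223 higher and 420 lower, and those of mean log2 CPM over 4 had 865 and 979. For pyruvate against lactate the same 2 sets gave 185 and 207, and 572 and 564. The part of width and level in the internal-start counts was not tested. Within libraries, the log2 ratio of counts over internal starts to counts in the other intragenic peaks averaged −3.29 ± 0.052 with lactate and Oxyrase, −3.13 ± 0.046 with lactate, −2.96 ± 0.069 with pyruvate and −2.96 ± 0.12 with NaCl (SD, n = 3 each). The ratio differed over the 4 groups (F = 12.1, exact permutation p = 0.00318). With 1 library left out at a time the F ranged from 8.15, without lactate with Oxyrase 1 (exact permutation p = 0.0158), to 28.8, without NaCl 3 (p = 3.90e-04).

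The first 3 starts whose sequences are printed above, each over the internal-start median of 18.0 CpG, are examples of the falls. The peak at the Runx3 internal start (chr4:135152205-135152643), in the gene of the factor that sets CD8 lineage identity, had 10.9, 10.4 and 10.2 CPM with lactate and Oxyrase, 15.1, 11.5 and 13.4 with lactate, 23.1, 23.4 and 19.0 with pyruvate, and 24.3, 24.3 and 16 with NaCl. Both lactate groups lay below both others, and lactate fell by 0.68 ± 0.12 against NaCl on the log2 scale (SE, edgeR adjusted p = 3.85e-04). The Runx3 transcript was higher with lactate and Oxyrase, at 167 ± 2.51 CPM against 126 ± 6.50 CPM with lactate (SD, n = 3 each), and with NaCl it was 119 ± 5.38 CPM. At the Hnrnpl internal start (chr7:28810303-28811556), in the gene of an RNA-binding splicing regulator, the peak had 42.7, 54.6 and 44.1 CPM with lactate and Oxyrase, 67.8, 56.6 and 53.4 with lactate, 101, 111 and 91.7 with pyruvate, and 106, 116 and 75.2 with NaCl. Lactate fell by 0.74 ± 0.11 against NaCl there (SE, edgeR adjusted p = 1.93e-04). The Dazap1 peak (chr10:80264691-80265250), also in an RNA-binding protein gene, had 16.2, 17.9 and 16.8 CPM with lactate and Oxyrase, 27.4, 24.3 and 23.9 with lactate, 41.9, 43.4 and 36.2 with pyruvate, and 42.0, 44.9 and 28.0 with NaCl. Lactate with Oxyrase fell by 1.17 ± 0.11 against NaCl (SE, edgeR adjusted p = 2.91e-11).

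The other 2 starts printed above, with 8 CpG in the Clcn3 and 2 in the Cast window, moved the other way with Oxyrase. The peak at the Clcn3 internal start (chr8:60954331-60955149), in the gene of an endosomal chloride and proton exchanger, had 21, 24 and 20.5 CPM with lactate and Oxyrase, 7.10, 6.28 and 8.39 with lactate, 7.73, 7.72 and 6.65 with pyruvate, and 7.64, 6.10 and 6.04 with NaCl. It rose by 1.59 ± 0.12 over lactate (SE, edgeR adjusted p = 1.84e-13), the largest rise among the called internal-start peaks in that comparison. The printed Cast start lies in the gene of the calpain inhibitor calpastatin. Another Cast start, with its window at chr13:74770687-74770986, held 10 CpG and is not printed. The peak at the printed start had 12.1, 13.3 and 10.8 CPM with lactate and Oxyrase against 5.38, 6.51 and 6.58 CPM with lactate. Its rise was 0.97 ± 0.13 (SE, edgeR adjusted p = 7.84e-08). Cast transcripts rose as well, to 198 ± 4.56 CPM with lactate and Oxyrase, against 131 ± 4.00 CPM with lactate (SD, n = 3 each).

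Over all 1121 internal starts the direction went with the CpG content of the window. The 46 that rose with Oxyrase over lactate had a median of 6.00 CpG dinucleotides, the 226 that fell 22 and the 849 not called 17.0. In windows with more than 30 CpG, 0 of 196 rose and 57 fell, whereas in windows with 0 to 5 CpG 22 of 156 rose and 22 fell. Lactate against NaCl lowered 51 of the 196 richest windows and 4 of the 156 poorest, or 97 and 10 without NaCl 3. Pyruvate against lactate raised 63 of the 196 and 8 of the 156. These bins were chosen after the values were seen and are given as a description.

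**Figure D4:**
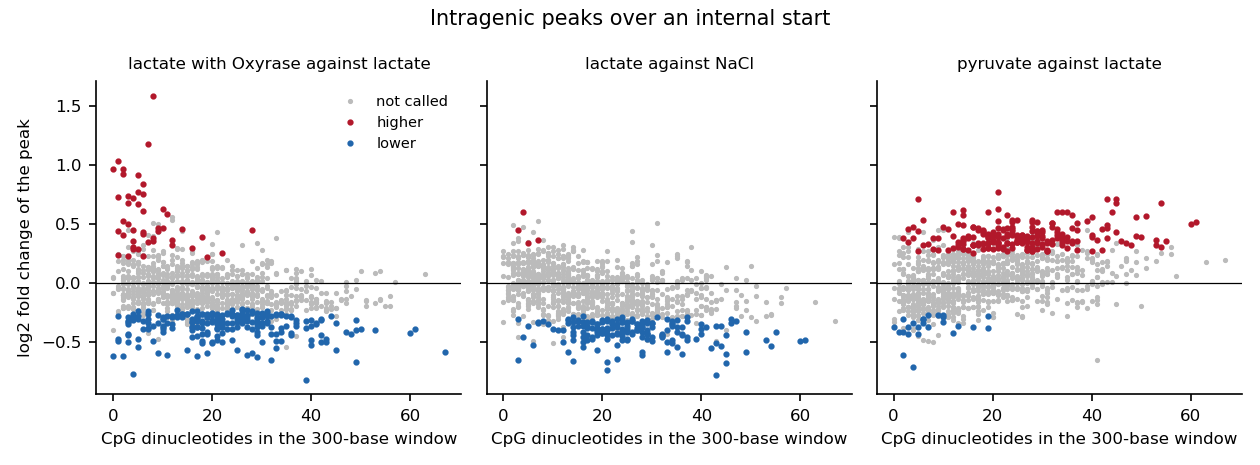
Log2 fold change of each of the 1121 internal-start peaks (vertical) against the number of CpG dinucleotides in its 300-base window (horizontal) in 3 comparisons; red points were called higher and blue points lower by edgeR's quasi-likelihood test. Rises with Oxyrase over lactate sit among CpG-poor windows (median 6.00) and falls among CpG-rich ones (median 22).

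The AP-1 motif TGANTCA, on either strand, was found in 14 of the 46 windows that rose with Oxyrase over lactate (30.4%), 12 of the 226 that fell (5.31%) and 6.83% of those not called. Over all promoter windows of the annotation it was found in 7.81%. The core of the hypoxia response element is ACGTG, read on either strand. It was found in 21.7% of the windows that rose, 21.2% of those that fell and 23.7% of those not called. The share was 19.6% over all promoter windows. Neither motif contains the other. A match is a stretch of letters and was not tested as a binding site.

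Transcripts of the host genes were weakly related to their peaks. Across 27668 peaks the log2 fold changes of peak and host transcript, lactate with Oxyrase against lactate, had a Pearson r of 0.09, and with the median over the peaks of each of 7058 hosts 0.11. These points share the same few libraries, and peaks of 1 host share a transcript. Against NaCl the r was 0.06 and 0.07. Of 7057 host genes tested in RNA, 32.3% were higher and 26.3% lower with lactate and Oxyrase than with lactate (edgeR quasi-likelihood test, adjusted p under 0.05), where 49.7% of all tested genes were called, 26.1% higher and 23.6% lower. Among the 2000 hosts whose called peaks were all higher, 41.9% of transcripts were higher and 22.3% lower. Among the 1127 hosts whose called peaks were all lower, 22.7% were higher and 34.3% lower. The 3132 hosts with no called peak gave 30.1% and 24.6%. Against NaCl, where 50.8% of all tested genes were called (26.5% higher and 24.3% lower), hosts with rises only had 39.0% of transcripts higher and 22.3% lower, and hosts with falls only 27.4% and 31.4%.

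Single genes showed how loosely size was shared. Havcr2 transcripts stood at 36.7 ± 2.07 CPM with lactate and Oxyrase against 1.47 ± 0.317 CPM with lactate (SD, n = 3 each; log2 fold change 4.64, edgeR adjusted p = 3.50e-12), where its 3 peaks rose by 0.23 to 0.32. Zeb2 transcripts were at 95.7 ± 2.75 CPM against 34.6 ± 0.958 CPM (SD, n = 3 each), a log2 fold change of 1.47 beside 1.34 at its named peak. Slc7a11 was at 30.2 ± 10.7 CPM against 5.81 ± 0.390 CPM (SD, n = 3 each) and rose by 2.37, and Egln3 by 1.08. Bach2 transcripts fell by 0.24 although more of its peaks rose than fell. Transcripts of Icos, the costimulatory receptor gene, fell to 101 ± 8.08 CPM with lactate and Oxyrase, against 284 ± 7.70 CPM with lactate (SD, n = 3 each), while 1 of its 9 peaks rose and 2 fell. Grap2 transcripts fell to 114 ± 3.48 CPM with lactate and Oxyrase, against 203 ± 5.48 CPM with lactate (SD, n = 3 each), and 6 of its 17 peaks fell while 0 rose.

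**Figure D5:**
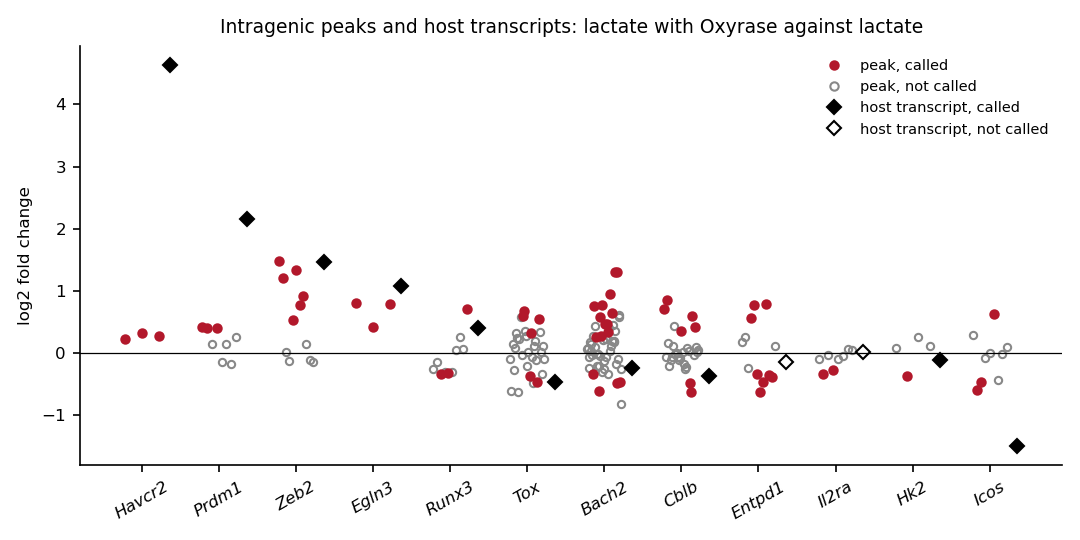
Log2 fold change of lactate with Oxyrase against lactate for every intragenic peak of 12 host genes (circles) and for the transcript of each host (diamond); filled symbols passed edgeR's quasi-likelihood test. The Havcr2 transcript (4.64) stands far above its peaks, and in Tox, Bach2 and Entpd1 peaks of both directions occur.

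With pyruvate against NaCl the hosts' transcripts changed while their peaks did not pass the test. There 970 hosts were higher and 464 lower in RNA, where 15.7% of all tested genes were called, 9.40% higher and 6.28% lower. The count was 841 without pyruvate 2 and 952 without NaCl 2. Havcr2 was at 18.8 ± 3.53 CPM with pyruvate against 1.34 ± 0.598 CPM with NaCl (SD, n = 3 each; log2 fold change 3.81, edgeR adjusted p = 3.74e-09). Its 3 intragenic peaks differed by −0.03 to −0.01 on the log2 scale, with 95% intervals of −0.21 to 0.15, −0.19 to 0.16 and −0.19 to 0.16. Prdm1, the gene of the effector factor BLIMP1, was at 3.69 ± 0.982 CPM with pyruvate against 1.32 ± 0.236 CPM with NaCl (SD, n = 3 each) with 0 of 8 peaks called. For lactate against NaCl 293 hosts were higher and 376 lower, where 7.73% of all tested genes were called, 3.61% higher and 4.12% lower. That count of 669 became 327 without lactate 2 and 400 without lactate 3, and leaving out NaCl 1 or NaCl 2 gave 322 and 282. For pyruvate against lactate 1264 hosts were higher (17.9%) and 768 lower (10.9%), where 24% of all tested genes were called, 13.0% higher and 10.9% lower. Hosts whose called peaks were all lower had 22.9% of transcripts higher and 9.13% lower. Those whose called peaks were all higher had 21.9% and 13.2%, so transcripts leaned higher in both.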

How the data were processed

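ATAC-seq and RNA-seq were each measured in 12 libraries, 3 in each of 4 groups taken from the labels. The deposited ATAC values are raw read counts per peak on mm10; the deposited RNA values are estimated counts per gene, in a table that its name calls adjusted, so the spread within groups may be too small there and RNA p-values with it. Per the submitters' processing notes, RSEM 1.2.12, Bowtie2 2.2.0, edgeR 3.20.9, Trimmomatic, BWA, Picard, MACS2 and bedtools were used; their settings are not given in the sources used here. Peak coordinates are printed as deposited. Peaks were placed with RefSeq GRCm38.p6 gene coordinates; exon or intron was not assigned.

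Counts (RNA rounded) were filtered with filterByExpr, which kept all 75802 peaks and 14749 of 55401 genes, scaled by TMM and fitted in 1 quasi-likelihood model per assay over 12 libraries in edgeR 4.0.16, with 8 residual degrees of freedom, Benjamini-Hochberg adjustment over all features and a threshold of 0.05. The biological coefficient of variation was 9.70% in ATAC and 5.05% in RNA. CPM of peaks and genes used library sizes scaled by TMM; marker levels used unscaled totals. Shares of counts were compared by exact two-sided permutation over libraries. The fits were tested on simulated data. DESeq2 1.42.0, other scalings, filters, limits, a replicate term and leaving out libraries were the alternatives.

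Named peaks were the 6 highest and 6 lowest fold changes among called peaks whose mean log2 CPM reached 2, groups that did not overlap and no predicted symbol; the peak of smallest p in each gene of a panel; up to 3 called peaks of each gene list; and hosts with the most peaks or calls. Genes at internal starts were named after their values were seen. The members, lists, panel and tests were chosen with earlier results of these data known. The limit for a count of 0 covers counting error only. Intervals of fold changes rest on the edgeR fit, so they also include the spread between these libraries. R 4.3.3, limma 3.58.1, Python 3.11.15, pandas 2.3.3 and scipy 1.17.1 were used.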

Additional observations from a re-analysis of the deposited data

How the results depend on the processing

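Counts of called intragenic peaks stayed within 1.5 times of those reported under other scalings, DESeq2, 6-library fits, a replicate term and a limit of 2.5 kb. The exception was a minimum mean log2 CPM of 2, which left 7035 called peaks for lactate with Oxyrase against lactate, since fewer peaks were tested. Leaving out 1 library gave 8061 to 9541 called peaks for lactate with Oxyrase against lactate, 11209 to 13839 for lactate with Oxyrase against NaCl, 132 to 3864 for lactate against NaCl, 0 for pyruvate against NaCl and 1245 to 2755 for pyruvate against lactate. Called host transcripts ranged over 3752 to 3886, 3834 to 3964, 282 to 644, 841 to 1195 and 1513 to 1708 in the same order. The log2 ratio of intragenic to gene-end counts ranged over 0.117 to 0.166, 0.272 to 0.382, 0.128 to 0.237, −0.045 to 0.064 and −0.207 to −0.144. For pyruvate against NaCl it was −0.003 and, as a median over peaks, 0.003, and the cause was not tested.

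Same-numbered replicates were not shown to be paired: their deviations correlated at −0.15 to 0.17, above 0.1 in 6 of 18 pairs, and 7 of 12 libraries correlated best with their own number. With the replicate block, 11406, 14547, 1939, 0 and 4049 intragenic peaks were called, and 3857, 3940, 415, 1100 and 1713 host transcripts; the cause of the fall to 415 from 669 was not tested. The block left 3 pairs for a ratio, whose smallest exact p is 0.25. For single named peaks, 4660 results stayed on their side of the threshold, 454 lost it, 70 gained it and 0 turned direction over the alternatives. Leaving out single libraries of the 4-group ratios, leaving out NaCl 3 for subgroups, the scalings of subgroups and the CpG bins were chosen after seeing the data. Depth and the spread between libraries limit the smallest differences: the median 95% interval of an intragenic peak spanned 1.25-fold to 1.26-fold on either side.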
